A study of Mus musculus with 8 samples.

Results

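Stitched clusters of many ZGLP1 summits were the 171 stretches of the mouse genome in which at least 6 ChIP-seq summits followed each other at most 5 kb apart. A summit is the base of highest read pile-up within a peak. Summits on the 19 autosomes and chromosome X were joined into runs, and runs of 6 or more were kept. Members were thus selected on the spacing and number of the summits themselves, so their sizes and densities are given as a description. Of 22599 runs in all, single summits included, 171 met the rule. They held 1207 of 32830 summits (3.68%). The rule left out a dense stretch near the start of chromosome 9 and another near the start of chromosome 11.

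ZGLP1 is a nuclear protein with GATA-like zinc fingers, named in the study's title as a determinant of oogenesis. Mouse embryonic stem cells (ESCs) of the strain C57BL/6 x DBA2 overexpressed Zglp1 fused to a V5 tag under doxycycline (Dox). The labels name the lines H18 BVSC and BDF1-2-1 BVSC without saying which library came from which. BVSC lines carry fluorescent reporters driven by sequence of Prdm1 (BV) and of Dppa3, also called Stella (SC). Primordial germ cell-like cells (PGCLCs), made from these ESCs and grown on m220 feeder cells, gave ChIP libraries on culture days 7 (c7) and 8 (c8) after Dox with retinoic acid (RA), and on days 7 and 8 after Dox alone, both from day 3. They were sorted as SC+ and mCherry+. ESCs gave a ChIP library after 24 h of Dox with RA and were sorted as mCherry+. Input libraries came from c8 PGCLCs with Dox and RA, c8 PGCLCs with Dox alone, and ESCs with Dox and RA. All groups thus shared Dox and the introduced factor, and no ChIP library came from cells without it. With 1 library per group there were no replicates. The 5 ChIP libraries were each made from a like number of cells. The summits came as a single list that names no library and gives no height, so which libraries contributed is not known here. Hence each value below is a position, conditions were not compared, no test was made and read depth is unknown. Intervals beside shares are exact binomial ones at 95%. They reflect counting error alone and treat neighbouring summits as independent, so they are too narrow.

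As background, transcription factors often bind in groups. At an enhancer or promoter several factors sit close together, and long arrays of such sites are known around genes that define a cell's identity. Arrays also arise where short genes are packed side by side, each with its own promoter, as in the histone gene clusters. GATA factors recognise the core letters GATA flanked by A or T on one side and a purine on the other, while many promoters of broadly used genes are rich in CpG and carry GC boxes.

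Sequence at the summits could be read where a summit fell in a promoter window of the RefSeq table for GRCm38.p6, which runs from 250 bases before to 50 bases after a start. Promoters of the named clusters are shown on the gene's strand, with up to 60 bases on each side of the summit, because they are the sequence under the summits of the histone, Bahcc1 and metallothionein clusters described below. The stretches are H3c2 at chr13:23752217-23752337 on the plus strand, H4c1 at chr13:23761234-23761354 on the minus strand, H4c8 at chr13:23530923-23531043, Bahcc1 at chr11:120232697-120232817 and Mt2 at chr8:94172593-94172667, the last 3 on the plus strand. Capitals mark a GC box (GGGCGG) or an AP2 motif (GCCNNNGGC) on either strand, which overlap in H4c8.
H3c2: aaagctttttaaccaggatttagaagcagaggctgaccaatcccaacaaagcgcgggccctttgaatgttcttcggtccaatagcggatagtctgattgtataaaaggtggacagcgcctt
H4c1: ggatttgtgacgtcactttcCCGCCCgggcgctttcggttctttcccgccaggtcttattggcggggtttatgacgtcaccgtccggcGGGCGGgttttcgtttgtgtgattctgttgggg
H4c8: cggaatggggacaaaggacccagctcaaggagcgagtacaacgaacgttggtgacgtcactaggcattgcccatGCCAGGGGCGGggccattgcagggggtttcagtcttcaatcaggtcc
Bahcc1: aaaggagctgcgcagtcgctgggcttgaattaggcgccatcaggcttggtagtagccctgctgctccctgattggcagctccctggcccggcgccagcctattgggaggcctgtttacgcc
Mt2: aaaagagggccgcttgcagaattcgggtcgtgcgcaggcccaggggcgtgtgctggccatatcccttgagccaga
H4c1 held 2 GC boxes and H4c8 held 1, joined to an AP2 motif. In the stretches of H3c2, Bahcc1 and Mt2 no searched motif was present. None of the 5 stretches held a GATA motif, searched on both strands as GATA led by A or T and followed by A or G. The stretches are parts of the promoter windows, and the whole window of H3c2 did hold a GATA motif. Other promoters of the named clusters with a summit are not shown. Among them, the windows of H3c3 and H3c8 held a GATA motif and that of H2ac10 did not.

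MicroRNA genes also lay in or beside these clusters. The miR-290 to miR-295 genes, whose microRNAs are abundant in mouse ESCs, were crossed by a cluster of 6 summits at chr7:3213872-3222056. A cluster of 6 summits at chr6:30173559-30177633 lay next to the genes of miR-183, miR-96 and miR-182. Mature sequences from RefSeq (GRCm38.p6) are given with the seed, bases 2 to 8, in capitals, because genes of a family sit under or beside 1 cluster.
mmu-miR-291a-3p: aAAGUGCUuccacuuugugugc
mmu-miR-294-3p: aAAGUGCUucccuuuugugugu
mmu-miR-295-3p: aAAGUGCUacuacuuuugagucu
mmu-miR-290a-3p: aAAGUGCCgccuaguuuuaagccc
mmu-miR-291b-3p: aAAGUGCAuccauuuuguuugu
mmu-miR-183-5p: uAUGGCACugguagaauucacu
mmu-miR-96-5p: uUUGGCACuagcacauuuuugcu
mmu-miR-182-5p: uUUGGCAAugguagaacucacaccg
The seed AAGUGCU was shared by miR-291a-3p, miR-294-3p and miR-295-3p, while miR-290a-3p and miR-291b-3p differed from it in the last base of the seed. A summit lay inside the hairpin of Mir291b, 15 bases from that of Mir293, 228 bases from Mir292, 445 bases from Mir295 and 790 bases from Mir290a. The other cluster overlapped none of its microRNA genes. Its nearest summit lay 3822 bases from Mir183, 4008 from Mir96 and 7567 from Mir182, and all 6 summits were over 20 kb from the end of a protein-coding gene.

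Most clusters were just above the limit of the rule. There were 84 with 6 summits, 43 with 7, 20 with 8, 10 with 9, 9 with 10, 2 with 11, 2 with 13 and 1 with 14. The median span from first to last summit was 9557 bases (quartiles 7416.5 and 11956, range 3688 to 21378), and the spans added up to 1.70 Mb. Density ranged from 0.326 to 1.65 summits per kb, with a median of 0.743. Just inside the limit, the 84 runs of 6 had a median span of 7947.5 bases, and just outside it the 176 runs of 5 had one of 6692.5 bases. At the joining distance, 805 neighbouring pairs lay over 4 and up to 5 kb apart and 739 lay over 5 and up to 6 kb apart. The median gap between neighbours was 1106.5 bases in clusters and 994 bases in runs of 2 to 5, and the shortest gaps were 448 and 397 bases. No break in size thus set the clusters of 6 apart from the runs of 5.

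**Figure D1:**
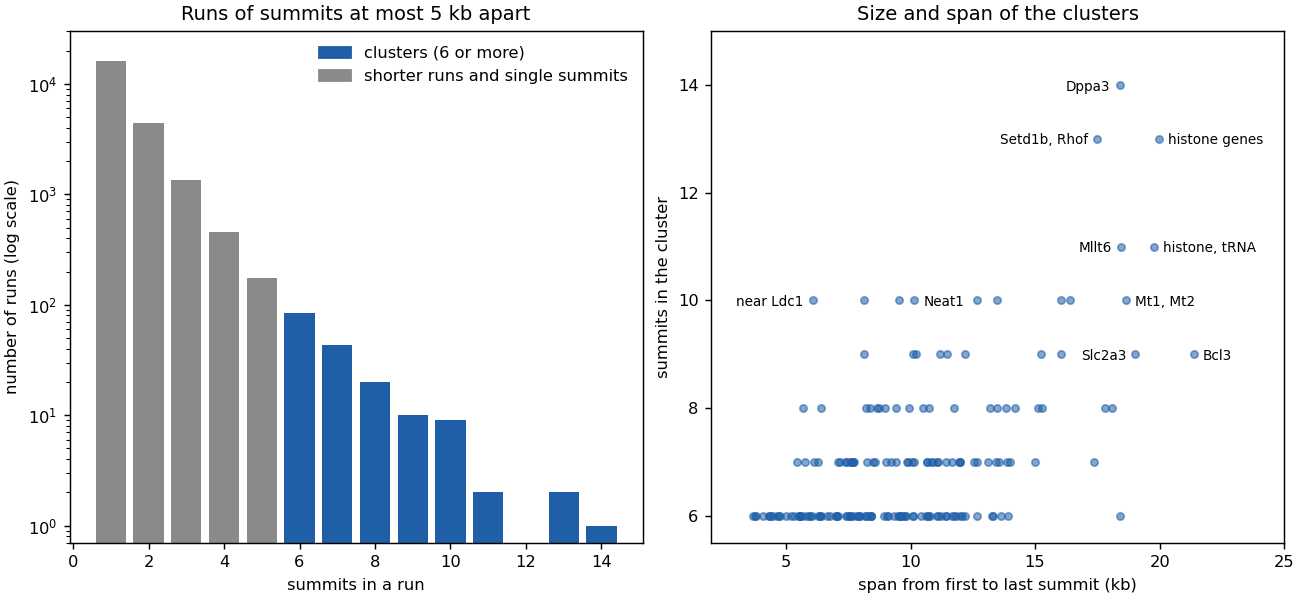
Left, number of runs (log scale) by the number of summits in a run, with the 171 clusters in blue and shorter runs and single summits in grey. Right, each cluster by its span in kb and its number of summits. The cluster with most summits, 14, is at Dppa3, and the widest is at Bcl3.

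The largest cluster, with 14 summits over 18389 bases at chr6:122610565-122628954, filled the interval between Gdf3 and Dppa3 and ran into Dppa3. Dppa3 (Stella) encodes a maternal and germ cell protein that guards DNA methylation in the early embryo, and Gdf3 a TGF-beta family ligand. The first summit lay 478 bases from the end of Gdf3, and 11 more stood between the genes, the last of them 65 bases from Dppa3. The final 2 lay inside Dppa3, at 1354 and 1317 bases from its nearest end. Gaps between neighbours ranged from 670 to 2397 bases. The SC reporter carries Dppa3 sequence, which can share reads with this locus. Its part in the count was not tested. Further along the same chromosome, Nanog, a pluripotency factor, had a run of 5 summits and so fell just below the rule. A cluster of 9 at chr6:122761246-122780276 lay wholly within the span annotated for Slc2a3, the glucose transporter GLUT3, with all summits over 10 kb from either of its ends, the closest at 22087 bases.

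The cluster at chr5:123132515-123150019 held 13 summits along Rhof, a small GTPase gene, and Setd1b, whose product methylates histone H3 lysine 4. Inside Rhof there were 9 summits, from 9293 down to 656 bases from the end that faces Setd1b. A summit stood between the genes, 25 bases from Setd1b, and 3 lay inside Setd1b, at 1871, 3040 and 7979 bases. Setd1b thus had a summit at its edge and Rhof carried most of the array along its body.

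In 3 clusters summits stood at the ends of short histone genes. At chr13:23744669-23764650, 13 summits crossed 8 histone genes, and all 13 lay within 1 kb of a gene end. The distances were 373 and 24 bases at H3c3, 79 at H2bc3, 169 at H2ac4, 68 and 56 at H3c2, 190 and 913 at H4c2, 613 and 45 at H4c1, 203 at H3c1, and 171 and 238 at H1f1. Every gene that the cluster crossed had at least 1 summit. At chr13:23515609-23535399, 11 summits began among tRNA genes and ended at H4c8, H2ac10 and H3c8, whose nearest summits lay 61, 23 and 19 bases from them. Another histone cluster, of 6 summits, lay at chr13:22035786-22044196, again with all summits within 1 kb of a gene end. Its first summit fell in the overlapping promoter windows of both H2bc12 and H2ac12. With the cluster of 13, it was 1 of 2 among the 171 for which this held. Over the annotation, 19 of 64 histone genes had a cluster within 10 kb, all through these 3 clusters, where 388 of all 21631 protein-coding genes (1.79%) did. Histone genes were picked as a group after the clusters had been seen. Many histone genes, and tRNA genes, are near-identical copies, and the placing of reads with several matches is not known here.

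Of the 9 clusters of 10 summits, 4 lay at Smad7, Socs3, Ier2 and the metallothionein genes. Smad7, which encodes an inhibitory SMAD of BMP and TGF-beta signalling, had 10 summits at chr18:75366903-75380371, the first 462 bases outside the gene and the other 9 inside it, out to 13006 bases from its end. Socs3, an inhibitor of JAK-STAT signalling, had 10 at chr11:117963571-117979598, of which 2 lay inside this short gene and 8 around it. Ier2, an immediate early gene, had 10 at chr8:84650644-84667043, with 3 inside and 4 within 1 kb of its ends. Mt1 and Mt2, whose metallothionein products bind heavy metals, shared 10 at chr8:94172653-94191321. A summit lay 35 bases inside Mt2, in the stretch printed above, another lay 246 bases inside Mt1, and the tail reached 10994 bases past Mt1. The array at Smad7 thus lay mostly inside the gene, and those at Socs3, Ier2 and the metallothionein genes lay mostly outside.

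Other large clusters lay inside or across an end of Mllt6, Bahcc1, Tnrc18, Crlf2, Tfap2c and Bcl3. Mllt6, a partner gene of leukaemia fusions, had 11 summits at chr11:97659206-97677654, 5 outside the gene, the nearest at 510 bases, and 6 inside. Bahcc1, which encodes a chromatin protein with a BAH domain, had 10 at chr11:120230354-120243024, of which 7 were inside. The summit in its printed promoter lay 113 bases from the annotated gene. All 10 summits at chr5:142814038-142823595 lay inside Tnrc18, from 73 to 9630 bases from its end. Crlf2, a cytokine receptor gene, had 10 at chr5:109551455-109559582, 5 of them inside. Tfap2c, the AP-2 gamma gene needed for primordial germ cells, had 9 at chr2:172544101-172552223. Of these, 2 lay outside the gene, at 1577 and 716 bases, and 7 inside, from 460 to 6399 bases. The widest cluster, 21378 bases at chr7:19809698-19831076, had 5 summits inside Bcl3, an NF-kappa-B cofactor gene, and 4 outside it, up to 8252 bases away.

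The densest cluster, 10 summits in 6077 bases at chr4:130202873-130208950, overlapped no annotated gene. Its summits approached Ldc1, at distances from 6150 down to 73 bases, with gaps of 514 to 966 bases. The next densest had 6 summits each. Those at chr4:156234048-156237736 lay in Klhl17 and Noc2l, at 1.63 summits per kb, those at chr11:3289022-3292771 at Patz1, a zinc finger factor gene, at 1.60, and those at chr10:42274440-42278221 at Foxo3 at 1.59. Foxo3 encodes a forkhead factor that keeps primordial follicles dormant in the mouse ovary. Its cluster sat over 1 gene end, with 4 summits inside, the nearest at 110 bases, and 2 outside at 586 and 1526 bases. The microRNA cluster beside Mir183 followed at 1.47 per kb.

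**Figure D2:**
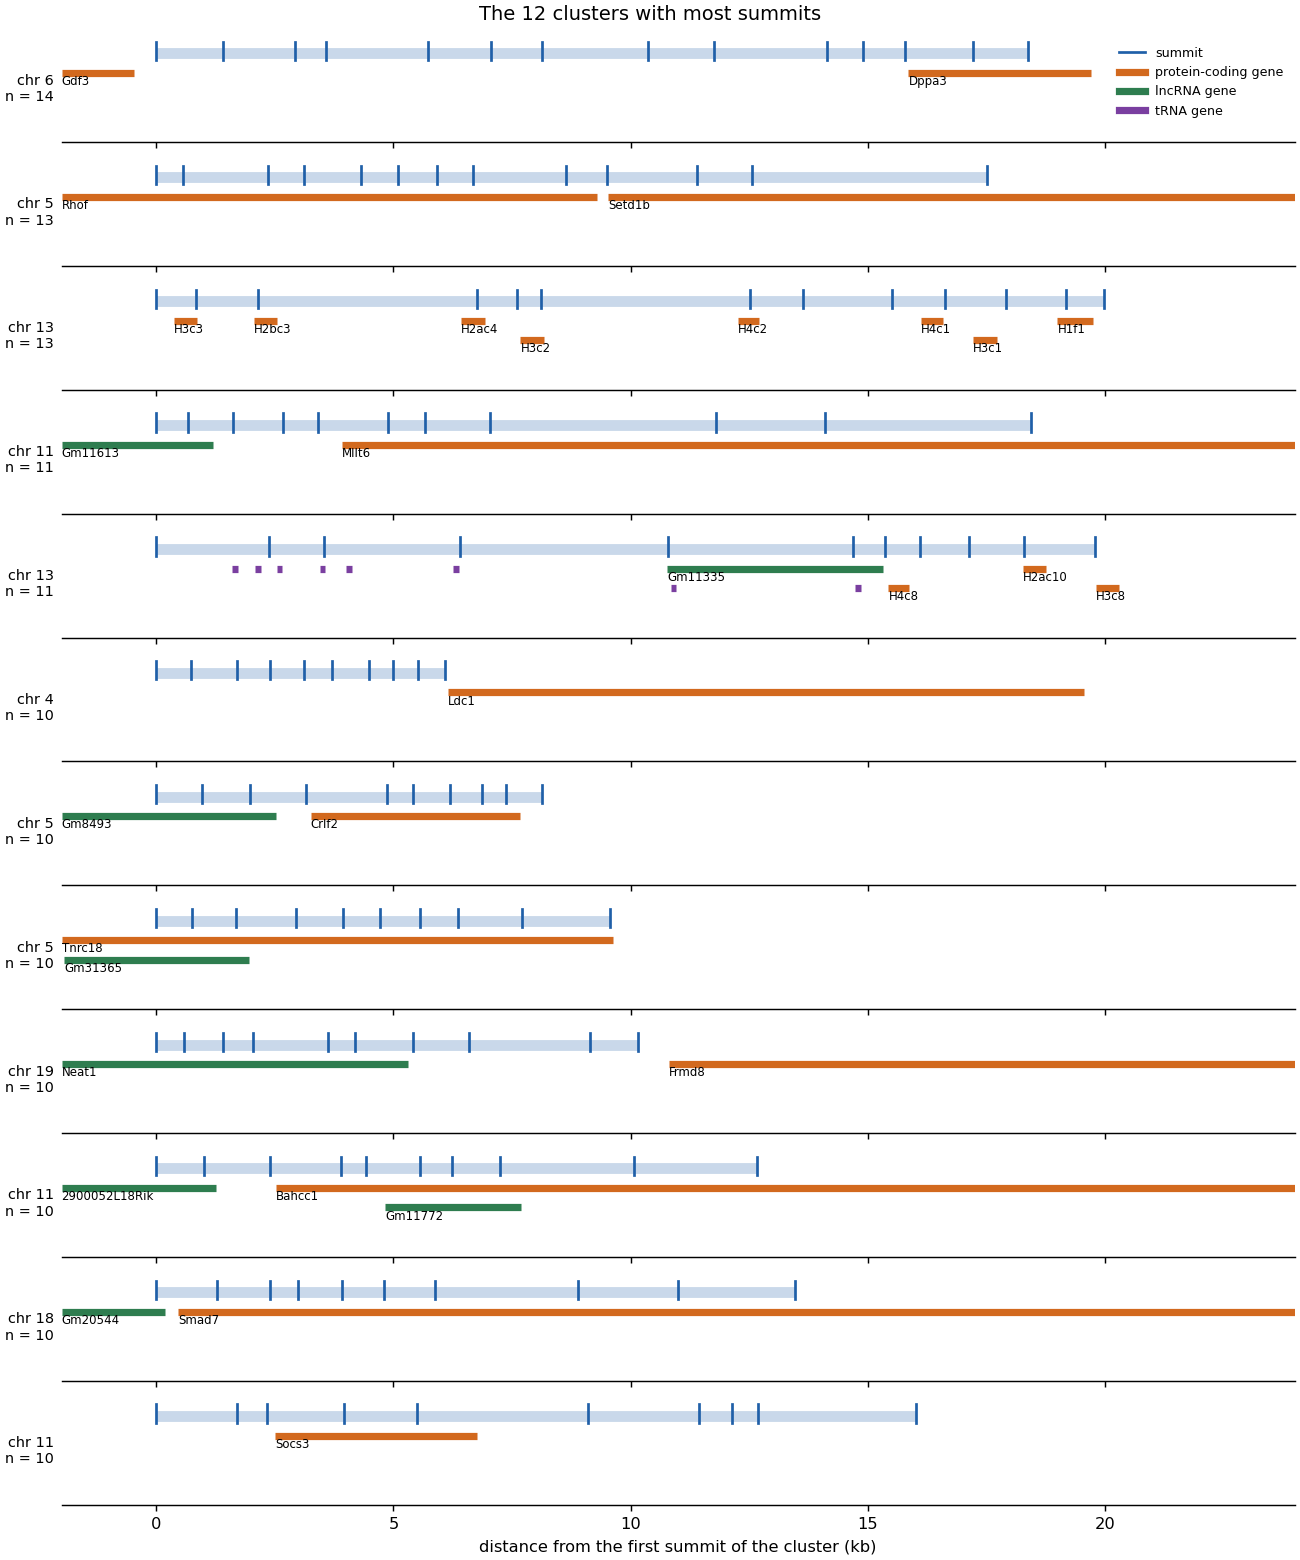
The 12 clusters with most summits, each from 2 kb before its first summit (distance in kb), with summits as blue ticks, the span in pale blue, and protein-coding, lncRNA and tRNA genes as bars below. Summits stand at each short gene of the histone cluster with 13 summits, fill the gap between Gdf3 and Dppa3, and run along the bodies of Rhof, Tnrc18 and Smad7.

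Across all members, 158 clusters overlapped a protein-coding gene. Of these, 92 overlapped 1 gene, 41 overlapped 2 and 25 overlapped 3 or more. A protein-coding gene end lay in, or within 1 kb of, 148 clusters (86.5%, interval 80.5 to 91.3). That share was 84.1% for the 176 runs of 5, 71.2% for the 6400 runs of 2 to 5 and 34.5% for the 16028 single summits, and a longer span reaches more gene ends, the median span being 9557 bases for clusters and 1424.5 bases for runs of 2 to 5. Counted by genes with an end within 1 kb of a summit, 29 clusters had none, 71 had 1, 41 had 2 and 30 had 3 or more. Among clusters of 3 or more such genes 68.8% of summits lay within 1 kb of an end, against 28.2% where there was 1 gene. The classes were set by the same distance of 1 kb, so a higher share with more such genes follows in part from the sorting. Wholly within a single gene lay 20 clusters, and 13 had no summit inside a protein-coding gene.

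The largest share of cluster summits lay 1 to 10 kb from the nearest protein-coding gene end, whether inside the gene or outside it. Within 1 kb of a protein-coding gene end there were 422 of 1207 cluster summits (35.0%, interval 32.3 to 37.7), 51.0% of those in runs of 2 to 5 and 34.5% of single summits. With runs of 5 counted as clusters too, the share was 36.8%. From 1 to 10 kb away lay 53.4% of cluster summits (50.6 to 56.3), 32.3% in runs of 2 to 5 and 22.2% of single ones. Over 10 kb away lay 11.6% (9.85 to 13.5), 16.6% and 43.3% in the same order. Inside genes lay 63.0% of cluster summits, 67.6% in runs of 2 to 5 and 62.4% of single ones. Off chromosome 18, for which no promoter windows were used, 8.52% of cluster summits fell in a promoter window, against 15.2% of summits in runs of 2 to 5 and 15.1% of single summits. Clusters also lay among more genes. Within 50 kb of the centre of a cluster the median was 7 protein-coding gene ends, against 4 for runs of 2 to 5 and 3 for single summits. Runs of 2 to 5 were also shorter, with a median span of 1424.5 bases against 9557 for clusters, and a longer run reaches farther from a gene end. The parts of gene density and of span in the other shares were not tested.

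**Figure D3:**
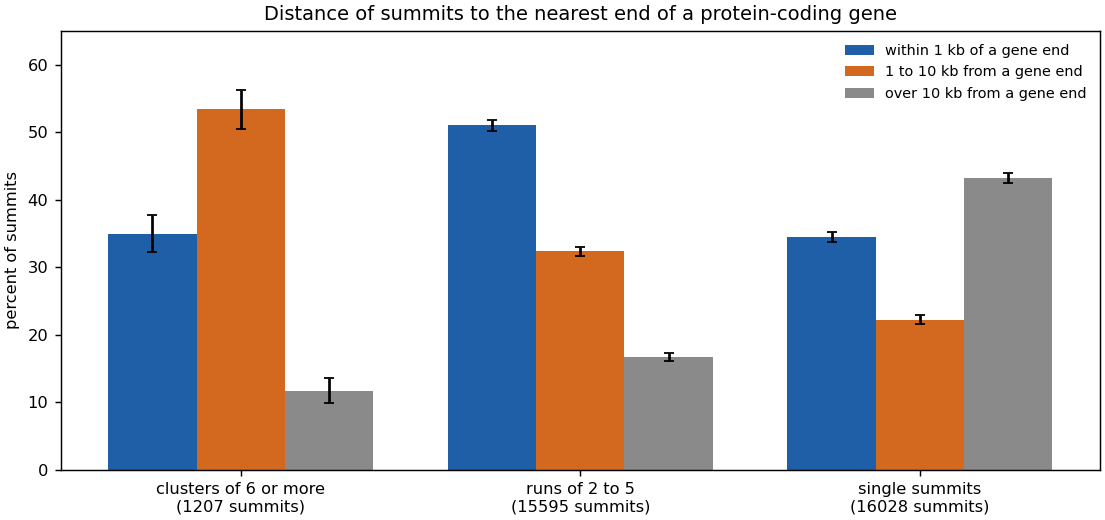
Percent of summits within 1 kb, 1 to 10 kb and over 10 kb from the nearest end of a protein-coding gene, for clusters, runs of 2 to 5 and single summits, with exact 95% binomial intervals as bars. The middle class is the tallest for clusters (53.4%), the nearest class for runs of 2 to 5 (51.0%) and the farthest for single summits (43.3%).

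By chromosome, clusters were most numerous on 11 (23), 7 (18), 5 (15) and 17 (14). Per 1000 protein-coding genes the numbers were 15.6 on chromosome 19, 14.3 on 11 and 13.2 on 17, and 2.03 on 3. None was on X, which carried 336 summits. Neighbours within 100 kb of each other made up 15 pairs. They included the clusters of Mllt6 and of Pcgf2 with Psmb3, 18856 bases apart, those of Tnrc18 and Actb, 78812 bases apart, and a pair inside the long cytoskeletal linker gene Plec, 6831 bases apart. A cluster's gap to the nearest other summit outside it had a median of 10551 bases.

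Genes of signalling and cell identity were looked up in lists, with a gene counted as linked when a cluster overlapped it or lay within 10 kb of an end. The lists were chosen with earlier results of these data known, so their shares are a description. The share over all protein-coding genes was the 1.79% given above. Retinoic acid genes were linked in 5 of 24 cases. Cyp26a1 and Cyp26c1, neighbouring genes for enzymes that degrade RA, shared 7 summits at chr19:37687158-37699090, with 3 inside Cyp26c1 and the remaining 4 nearest to Cyp26a1, the closest 303 bases inside it. The receptor gene Rarg had 7 and Rara had 6. Rxrb, another receptor gene, shared the 7 at chr17:34024362-34037033 with Slc39a7, H2-Ke6 and Ring1. All 7 at chr15:102235915-102249783 were inside Rarg, and all 6 at chr11:98954476-98963803 were inside Rara, over 10 kb from its ends. RA was added to 3 of the 5 ChIP cultures, and which of them gave these summits is not known here.

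Naive pluripotency genes were linked in 6 of 30 cases, namely Gbx2, Tfap2c, Mycn, Jarid2, Tbx3 and Utf1. Gbx2, a homeobox gene, shared 9 summits at chr1:89927329-89943359 with LOC102637806. Of these, 4 were within 1 kb of the ends of Gbx2, the closest at 12 bases. The 5 beyond it were nearest to an end of LOC102637806, at 1451 to 8766 bases. Mycn, a Myc family gene, had 7, of which 5 were inside the gene, the closest 42 bases from its end. Pou5f1 had 5 summits within 10 kb but no run longer than 3. The primordial germ cell list had 2 of 25, Dppa3 and Tfap2c, and the oocyte list had 2 of 30, Dppa3 and Foxo3. Dppa3, Tfap2c, Jarid2 and Tbx3 each stood in a pair of lists and were counted in both.

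No cluster was linked to the genes of meiotic prophase (0 of 45, upper limit 7.87%) or to those of late germ cells and the piRNA pathway (0 of 25, upper limit 13.7%), and none came in when runs of 5 were taken too. Both upper limits lie above the 1.79% over all protein-coding genes, so at these list sizes a lower share than that was not detectable. Stra8, which starts meiosis in response to RA, had 3 summits within 10 kb, none of them joined to another. Rec8, the meiotic cohesin, had 3, with a longest run of 2. Zglp1 itself had 4 and a longest run of 3. The introduced V5-tagged Zglp1 carries sequence of this gene and can share reads with it. The part of the introduced copy in this count was not tested.

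BMP and SMAD response genes were linked in 3 of 30 cases, Smad7, Smad6 and Gata2. Smad6, the other inhibitory SMAD gene, had 8 summits at chr9:64017202-64022902, 6 inside it and 2 just outside at 305 and 817 bases. Gata2, a GATA factor gene, had 7 spread over chr6:88189800-88204788, 5 inside it and 2 outside. Id1 and Msx1, targets of BMP, had 3 and 4 summits within 10 kb and longest runs of 3. Notch genes were linked in 3 of 24 cases. Hes1, a bHLH repressor gene and Notch target, had 7 at chr16:30063286-30070715, the closest 43 bases inside. Hes7, which oscillates in the segmenting embryo, was linked to 6 at chr11:69118324-69125350, among tRNA genes. Of these summits 5 lay within 500 bases of a tRNA gene, and the last was nearest to Aloxe3, at 67 bases. Notch1 had 6, of which 4 were inside the gene at 2782 to 293 bases from its end. WNT genes were linked in 0 of 40 cases (upper limit 8.81%).

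Immediate early genes were linked in 6 of 32 cases. Beside Ier2 these were Nr4a1 with a cluster of 8 summits nearby, Fosb with 7, and Egr1, Junb and Jund with 6 each. At Fosb 5 summits lay inside and 1 on each side. The cluster linked to Nr4a1 did not reach that gene, its nearest summit being 7354 bases away. It overlapped Grasp, to which the other 7 summits were nearest. Chromatin regulators were linked in 7 of 52 cases. Besides Setd1b they included Brd2, a BET bromodomain gene, and the Polycomb gene Pcgf2 with 7 summits each, and Ehmt2 and Jarid2 with 6 each. The Polycomb gene Ring1 was linked through the cluster it shares with Rxrb, which overlaps Ring1 only at its edge. All 7 at chr17:34117229-34122664 lay inside the span annotated for Brd2, and 5 of them were nearest to an end of H2-DMa, whose span overlaps that of Brd2.

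Housekeeping genes were linked in 4 of 34 cases. Actb, for beta-actin, had 7 summits at chr5:142902407-142909836, of which 4 were inside and 3 outside, at 708, 311 and 1860 bases. Gapdh shared 7 with its neighbour Iffo1. Eef1a1 and Eef2, translation elongation factor genes, had 6 each. Cytosolic ribosomal protein genes were linked in 8 of 77 cases, led by Rpl18 with 9, shared with Dbp, Sphk2 and Car11, Rpl10a with 8, and Rpl8 with 7. Several of these genes lie among close neighbours, and a cluster over several genes was counted for each of them.

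Developmental regulators outside the Hox clusters were linked in 2 of 71 cases, Cdx2 and Tbx3. Of 39 Hox genes none was linked (upper limit 9.03%). At Hoxa and Hoxd the summits came in runs of 5, and a minimum of 5 linked 11 of them. The Zfp zinc finger genes had 8 of 397 (2.02%), olfactory receptors 0 of 1110 and keratin-associated genes 0 of 56. In all, 52 listed genes were linked, to 45 of the 171 clusters, so most clusters lay at genes outside the lists.

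**Figure D4:**
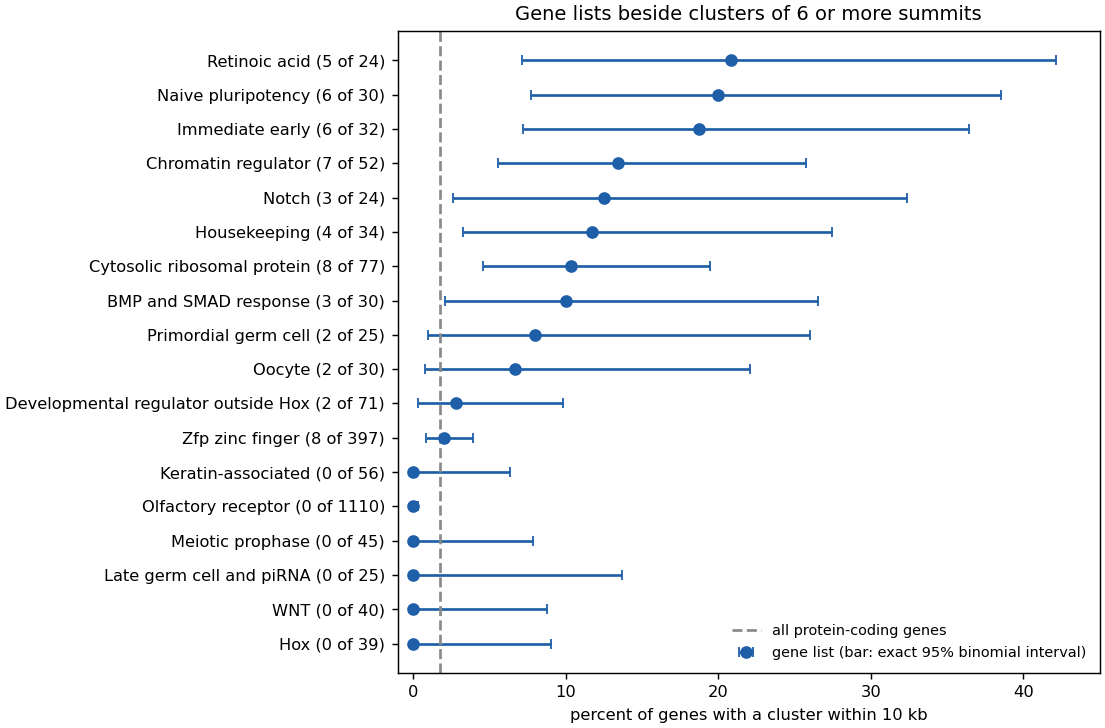
Percent of each gene list with a cluster within 10 kb, with exact 95% binomial intervals, beside the share over all protein-coding genes (dashed, 1.79%). The highest shares are at retinoic acid (5 of 24), naive pluripotency (6 of 30) and immediate early genes (6 of 32). Their intervals overlap those of chromatin regulators (7 of 52), housekeeping (4 of 34) and ribosomal protein genes (8 of 77). Meiotic prophase, WNT and Hox genes are at 0. The lists were chosen with earlier results of these data known.

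Genes that make no protein were also linked. Of 408 annotated tRNA genes, 47 (11.5%) had a cluster within 10 kb, all through 9 clusters. Of these clusters, 8 overlapped 39 of the tRNA genes. Neighbouring tRNA genes at 1 cluster were each counted, so they are not independent. A cluster summit lay within 500 bases of 35 tRNA genes. At chr11:69036033-69045744, 6 summits crossed 7 tRNA genes, and at chr3:96497772-96502085, 6 summits crossed 5 tRNA genes with no protein-coding gene nearer than 23078 bases. MicroRNA genes were linked in 43 of 1228 cases (3.5%), through 27 clusters, of which 13 overlapped 22 microRNA genes. These included the miR-290 to miR-295 genes, Mir130a and Mir22. Small nucleolar RNA genes were linked in 26 of 1340 cases (1.94%), and long noncoding RNA genes in 98 of 12697 (0.772%).

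Of the 13 clusters that overlapped no protein-coding gene, 6 overlapped a long noncoding RNA gene, 3 overlapped tRNA genes and 4 overlapped no annotated gene. Neat1, which builds nuclear paraspeckles, had 10 summits at chr19:5840169-5850325, running past its end toward Frmd8. Malat1, an abundant nuclear RNA, had 8 at chr19:5794952-5803691, all over 10 kb from a protein-coding gene. The pair lay 36478 bases apart. Of the 14 clusters with all summits over 10 kb from a protein-coding gene end, others lay inside long genes such as Plec, Agap3 and Gse1, and 1 was the tRNA cluster on chromosome 3.

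Promoter sequence was compared for 114 windows with a cluster summit, 5244 with another summit and 15662 without one. The 114 windows belonged to 97 genes and 72 clusters, with some genes having several starts. Median GC content was 63.7% in windows with a cluster summit (quartiles 58.5 and 68.3), 63.0% with another summit and 53.3% without one. The observed over expected CpG ratio was 0.781, 0.815 and 0.393 in the same order. Promoters under cluster summits were thus close in composition to those under other summits, and both had higher median GC and CpG than promoters without a summit.

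GATA motifs were present in 16 of 114 promoters with a cluster summit (14.0%, interval 8.24 to 21.8), 13.9% with another summit, 29.9% without one and 25.8% of all 21020. GC boxes were present in 71.9% (62.7 to 79.9), 70.9%, 38.3% and 46.6%, taken in that order. For the E box CACGTG the shares were 5.26%, 11.5%, 6.73% and 7.91%, and for the nuclear receptor core site AGGTCA 6.14%, 10.2%, 16.2% and 14.6%. The octamer ATTTGCAT was in 3.51%, 1.43%, 1.75% and 1.68%, and the AP2 motif GCCNNNGGC in 26.3%, 26.9%, 17.7% and 20.1%. The octamer share with a cluster summit rests on 4 windows, among them the overlapping windows of H2bc12 and H2ac12. Windows that overlap were each counted, so a site can count more than once. These motifs depend on base composition. Under 50% GC, GATA was in 36.4% of 11 promoters with a cluster summit, 31.0% with another and 49.3% without one, and the GC box in 36.4%, 27.1% and 6.18%. Most of these 11 were windows of histone genes in the chromosome 13 clusters, and so were all of them with a GATA motif. They included the overlapping windows of H2bc12 and H2ac12, so they are not independent. At 50 to 60% GC, GATA was in 22.7% of 22 with a cluster summit, 21.6% with another and 26.9% without one, and the GC box in 54.5%, 51.5% and 34.5%. At 60 to 70% GC, GATA was in 11.5% of 61 with a cluster summit, 11.4% with another and 13.0% without one, and the GC box in 80.3%, 78.1% and 76.1%. At 70% GC or more, GATA was in 0 of 20 with a cluster summit (upper limit 16.8%), 4.75% with another and 2.96% without one, and the GC box in 85.0%, 91.8% and 93.0%. Below 60% GC the GC box share was thus higher with a cluster summit than without one, and above it the shares were closer. The lower classes rest on 4 of 11 and 12 of 22 promoters with a cluster summit, and most of the 4 were histone windows. Promoters with another summit also lay above those without one there, so this was not particular to clusters. Where a promoter held both, the GATA motif was a median of 99.5 bases from the cluster summit (16 promoters) and 102.5 bases from another summit. A match to letters is no evidence of binding, and cluster summits outside promoter windows were not read for motifs.

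**Figure D5:**
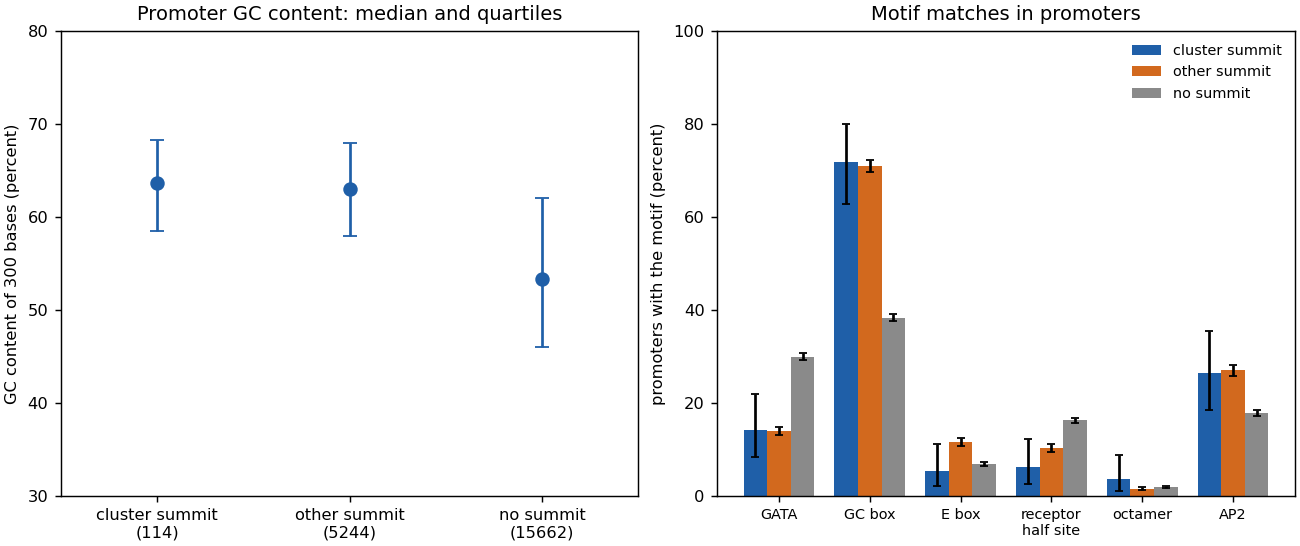
Left, GC content of promoter windows with a cluster summit, another summit or none, as median (point) and quartiles (bars). Right, percent of these promoters with each motif on either strand, with exact 95% binomial intervals; GATA is at 14.0%, 13.9% and 29.9%.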

How the data were processed

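The authors deposited 1 list of summit positions in bases on mm10, 1 base each, and no other measure. Per the submitters' processing notes, HOMER 4.9.1, MACS2 2.1.1.20160309, MACS, bedtools, SAMtools 1.3, Picard 2.1.0, Bowtie 1.1.2, cutadapt 1.9.1 and Trim Galore 0.4.1 were used. Settings, thresholds and the pooling of libraries are not given in the sources used here. Because start and end are equal, distances may be off by 1 base. Peak calling sets how near summits can stand, and unbound places cannot be told from those below its threshold.

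Neighbouring summits at most 5 kb apart were joined, runs reaching into the windows left out were dropped, and runs of at least 6 were kept. Genes came from RefSeq (GRCm38.p6). A gene end is either end of a gene. Promoter windows of 300 bases were at hand for 17274 of 21120 protein-coding genes off chromosome 18. Clusters named were the 15 with most summits, the 5 widest and the 5 densest, with up to 4 overlapping protein-coding genes, from each list the 3 linked genes of the largest clusters, and 11 genes set by name. Any other gene named, among them Gdf3, Ldc1, Neat1, Malat1, Frmd8, Plec, Agap3, Gse1, Psmb3, Iffo1, Dbp, Sphk2, Car11, H2-DMa, Grasp, Slc39a7, H2-Ke6, Rxrb, Rara, Ring1, Ehmt2, Jarid2, Tbx3, Utf1, Egr1, Junb, Jund, Eef2, the histone genes beyond that rule and the noncoding genes, was chosen after its values were seen. The members and lists were chosen with earlier results of these data known. Mili of the late germ cell list was not matched.

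Conditions could not be compared and nothing was tested. Joining and distances were checked on simulated positions. Alternatives covered the joining distance, the minimum, merged summits, gene ends, links and the windows left out, and 1 promoter window per gene, which was added after seeing the data. The tools were matplotlib 3.10.9, SciPy 1.17.1, pandas 2.3.3, numpy 2.4.6 and Python 3.11.15.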

Additional observations from a re-analysis of the deposited data

Results flagged for a closer look

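The windows left out held summits that the comparisons did not use. On chromosome 11, runs of 43 summits (chr11:3123805-3179624) and of 7 (chr11:3185037-3194784) met the rule for clusters, as did a run of 31 on chromosome 9 (chr9:3000461-3038082). Their densities were 0.770, 0.718 and 0.824 summits per kb, within the range of the 171 clusters. On chromosome Y, which was not used, the longest run held 6 summits (chrY:90739358-90744419). Input libraries were made, but the list gives no summits or reads of them, and the cause of these runs was not tested.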

How the results depend on the processing

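The number of clusters followed the rule. Joining at 3 kb gave 79 clusters with 1.68% of summits and 0.721% of protein-coding genes linked, and joining at 10 kb gave 463, 11.0% and 5.85%. A minimum of 5 gave 347, 6.36% and 3.36%, a minimum of 8 gave 44, 1.22% and 0.504%, and merging summits within 1 kb gave 31, 0.757% and 0.374%. Keeping the windows left out gave 174. The share of clusters with a gene end within 1 kb stayed between 85.3% and 90.1% under the other joining rules and was 93.0% with all annotated genes. Summits within 1 kb of an end made up 25.7% after merging, 21.2% at 500 bases and 29.0% for gene starts alone where the strand was given. Linked genes were 1.21% by overlap alone and 3.71% within 50 kb. Among the alternatives for cluster number, gene ends, summit shares and all linked genes, 21 moved from the reported value and 10 did not. Of 42 other alternative values, for motifs and gene lists, 39 stayed within the interval of the reported share. Some of these could not move, since a list at 0 stays at 0 by overlap alone, and many intervals are wide. The 3 of these 42 that moved were at a minimum of 5, with Hox genes at 28.2%, WNT genes at 10% and ribosomal protein genes at 19.5%. No paired analysis was possible because the list names no library. Without heights or depth, a weak summit counts as much as a strong one, a wide peak split into several summits counts as several, and stretches with too few reads cannot be told from unbound ones.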
